A study of Myotis pilosus with 4 samples.

Results

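miR-448 and miR-1298 are a pair of microRNA (miRNA) hairpins that in mammals lie in introns of HTR2C, the X-linked gene of the serotonin receptor 2C. Their 4 mature arms, miR-448-3p, miR-448-5p, miR-1298-5p and miR-1298-3p, were followed here in the brain and the white adipose tissue (WAT) of Myotis ricketti bats in hibernation and in activity. Myotis ricketti is the large-footed bat that the sample labels file as Myotis pilosus. The 4 arms belong to a list of mature miRNAs of this bat that holds 119 conserved and 77 bat-specific members, and all 4 are among the conserved ones. They were chosen for their host gene, and each was looked up by its listed mature sequence among the sequenced tags, a tag being a distinct read sequence with its count.

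Adult hibernating bats gave the brain library HB and the WAT library HA, and adult active bats, which the labels call aroused, gave the brain library AB and the WAT library AA. Each of the 4 libraries was made from pooled total RNA of several bats, from whole brain or from intra-abdominal fat. The hibernating and the active bats were captured in different seasons, so that hibernation and season cannot be told apart. No genetic change or drug was part of the design. With 1 library per condition there was no spread between replicates and no test. Every difference is one between 2 libraries, and every interval is a 95% interval for counting error only, since PCR copies are not independent molecules. The intervals are exact (Poisson for the level of an arm in a library, Clopper-Pearson for ratios and shares). The exception is that of the difference between tissues in the ratio of states, which is a normal approximation. Depth was 12159756 (HB), 10007650 (AB), 11542470 (HA) and 11437337 (AA) clean reads. The listed miRNAs took 20.9%, 24.0%, 13.2% and 20.9% of these reads, in the same order, and the lower share in HA stands beside every value of that library below.

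A miRNA is cut from the stem of a hairpin, and the 5p and 3p arms come from the opposite sides of that stem. Usually 1 arm is kept in the silencing complex, where its seed (bases 2 to 8) pairs with target mRNAs, and the other arm is degraded. An intronic miRNA can be made from the transcript of its host gene, and hairpins in the same gene can share a precursor. The serotonin receptor 2C is made by neurons and the choroid plexus and acts on appetite and energy balance, and miR-448 has been studied in fat as a repressor of adipocyte differentiation.

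The mature sequences of the 4 arms follow, because every count below rests on them. They are written 5′ to 3′ as DNA, with the seed in capitals.

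miR-448-3p: tTGCATATgtaggatgtccca
miR-448-5p: aACATCCTgcatagtgctgcca
miR-1298-5p: tTCATTCGgatgtccagatgt
miR-1298-3p: cATCTGGGcaactgattga

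miR-448-3p and miR-1298-5p are 21 nt long, miR-448-5p is 22 nt long and miR-1298-3p is listed with 19 nt. None of the 4 seeds was shared with another arm or with any other listed miRNA.

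miR-448-3p was the main product of the pair of hairpins and the only arm whose listed sequence was read in WAT. The brain libraries held 3829 (HB) and 4138 (AB) reads of it, and the WAT libraries 77 (HA) and 739 (AA). As reads per 1000000 clean reads (RPM), the brain levels are 315 in HB (305 to 325) and 413 in AB (401 to 426), and the WAT levels are 6.67 in HA (5.26 to 8.34) and 64.6 in AA (60.04 to 69.4). The order of RPM from high to low was therefore AB, HB, AA and HA, and no neighbours in this order had overlapping intervals. RPM is scaled by clean reads alone, and under the other scalings given below the direction between AB and HB was not stable. Ranked by reads among the listed miRNAs of a library, miR-448-3p was number 21 in HB and 24 in AB, but 36 in AA and 74 in HA.

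miR-1298-5p, the more abundant arm of the other hairpin, was read 408 times in HB and 238 times in AB, or 33.6 (30.4 to 37.0) and 23.8 (20.9 to 27.0) RPM. It had 0 reads in HA and in AA, which allows up to 0.260 and 0.262 RPM. miR-1298-3p, its partner arm, was read 97 times in HB, 50 times in AB and 0 times in WAT, and its level was 7.98 (6.47 to 9.73) and 4.996 (3.71 to 6.59) RPM in the brain libraries. miR-448-5p, the opposite arm of miR-448, was near the limit of detection with 3 (HB), 5 (AB), 0 (HA) and 0 (AA) reads.

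Counting every tag that began with the first 18 nt of an arm, which adds forms with other 3′ ends, raised the levels but left this layout in place. miR-448-3p then had 7334 (HB), 6545 (AB), 157 (HA) and 1402 (AA) reads. In the same order, miR-1298-5p had 1177, 761, 1 and 0 reads, miR-1298-3p had 205, 130, 0 and 0, and miR-448-5p had 10, 23, 0 and 1. The brain libraries had more reads than the WAT libraries for every arm. For miR-448-5p, however, the interval of HB (0.394 to 1.51 RPM) overlapped that of AA (0.002 to 0.487 RPM). In brain, the order of HB and AB for miR-448-5p rested on few reads.

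**Figure D1:**
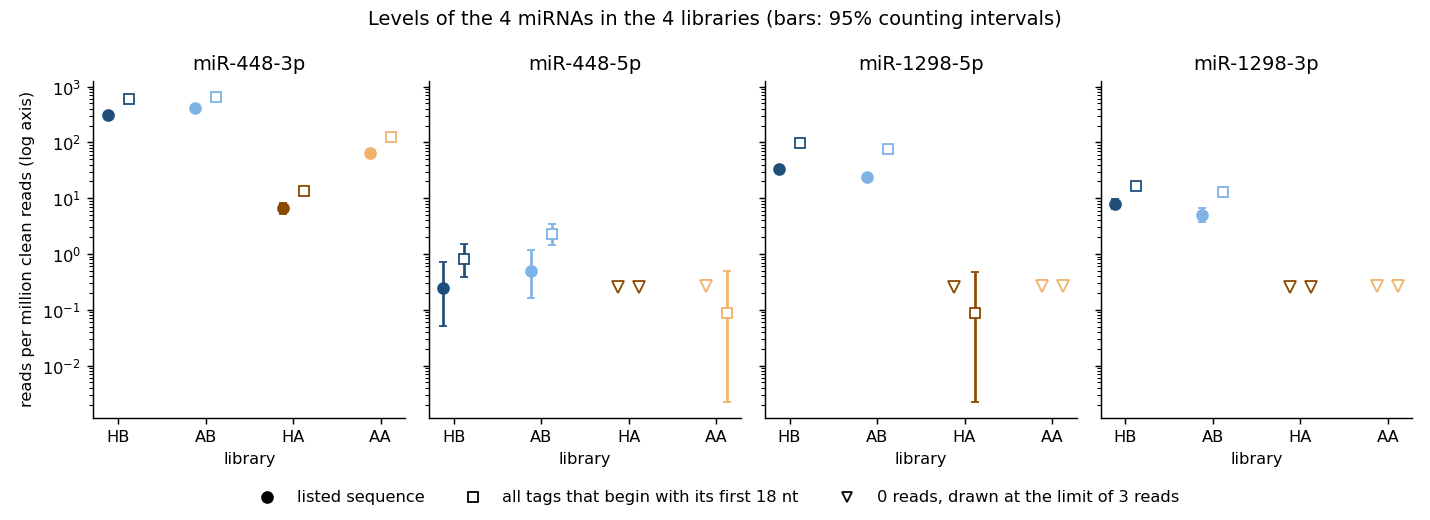
Level in RPM (log axis) of each arm in the 4 libraries, for the listed sequence (filled circles) and for all tags with its first 18 nt (open squares), with 95% counting intervals and with triangles at the limit of 3 reads where a library had 0 reads. miR-448-3p was lowest in HA at 6.67 RPM for the listed sequence, and the other arms had at most 1 read in either WAT library.

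In WAT, miR-448-3p was lower in the hibernating than in the active library. The fold by reads was 9.60, and after scaling by TMM (trimmed mean of M-values, which sets the level of no change from the bulk of the listed miRNAs) HA was 7.60-fold below AA, a log2 ratio of -2.93 (-3.28 to -2.59). Over the other scalings and count rules this ratio lay between -3.28 and -2.15. Of 142 listed miRNAs with 10 or more reads in the pair, 49.3% had a log2 ratio whose size was at least 1, 29 of them higher and 41 lower in HA, and the median ratio was -0.29. miR-448-3p was among those lower in HA, with 4 miRNAs below it and 137 above it. The HA library also held 1160810 different tags against 536068 in AA, and the part of this difference in the result was not tested. In RNA from whole tissue, fewer cells of a type and less RNA per cell cannot be told apart.

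In brain, miR-448-3p was at nearly the same level in both states. On the log2 scale HB over AB was -0.10 (-0.17 to -0.04), and it turned to 0.03 with TMM over the conserved miRNAs and to 0.17 when the tags with the first 18 nt were counted on the scaling of the listed tags, so no direction can be given. The arms of miR-1298 were higher in HB. The log2 ratio was 0.79 (0.55 to 1.02) for miR-1298-5p and 0.97 (0.46 to 1.49) for miR-1298-3p, or 1.73-fold and 1.95-fold. With the first 18 nt counted and TMM recomputed on these counts, they were 0.37 and 0.40, and on the scaling of the listed tags 0.64 (0.51 to 0.77) and 0.67 (0.34 to 0.99). For miR-448-5p, with 3 and 5 reads of the listed tag, it was -0.73 (-3.41 to 1.63), and a difference was not detectable. With its first 18 nt counted, at 10 and 23 reads, it was -1.46 (-2.70 to -0.34), and -1.19 (-2.43 to -0.07) on the scaling of the listed tags, so that these intervals lay below 0. With bases 2 to 17, at 30 and 28 reads, it was -0.08 (-0.87 to 0.72), so the value for miR-448-5p depended on which forms were counted.

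Among the 153 listed miRNAs with at least 10 reads in HB and AB together, the ratio reached a size of 1 for 40.5%, and the median was 0.01. The 3 arms among them, miR-448-3p and both arms of miR-1298, stayed below that size, although miR-1298-3p reached 1.10 with TMM over the conserved miRNAs. miR-448-5p had too few reads to be among them. miR-448-3p stood near the middle of them, with 69 miRNAs below it and 83 above. miR-1298-5p had 107 below and 44 above, and miR-1298-3p had 117 below and 35 above, so neither stood at the edge of the distribution.

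**Figure D2:**
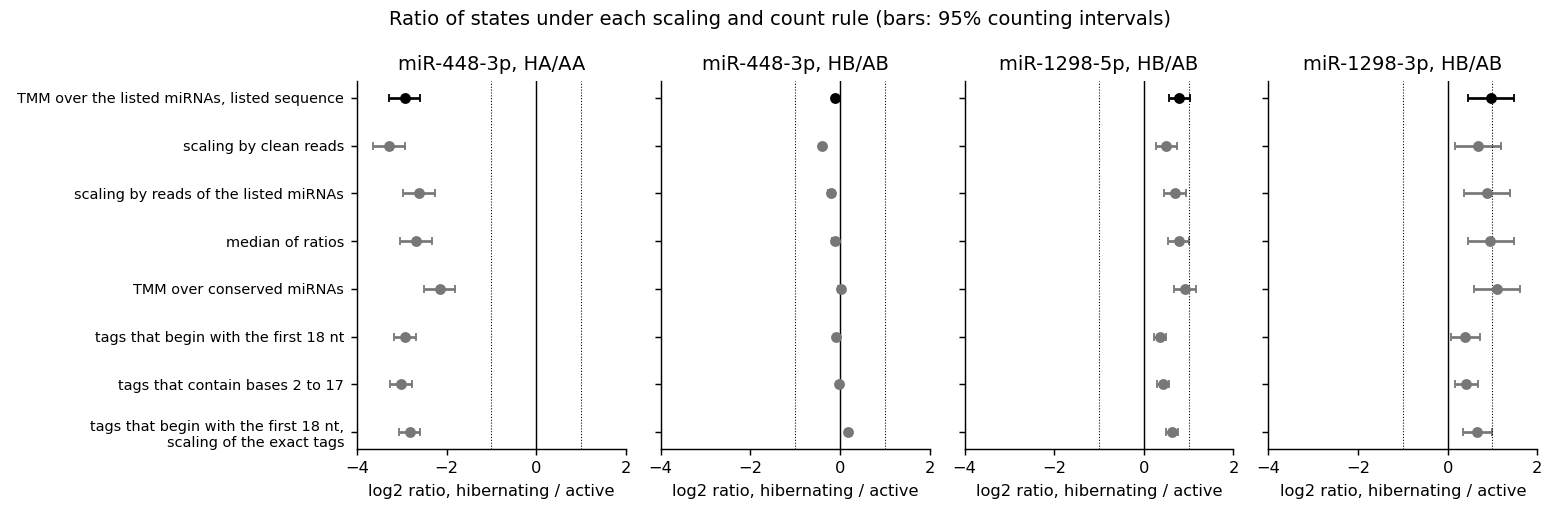
Log2 ratio of the hibernating to the active library (x axis) under the main setting (black, top) and 7 other scalings or count rules (grey), with 95% counting intervals, a solid line at 0 and dotted lines at a size of 1. miR-448-3p in WAT lay between -3.28 and -2.15 throughout, whereas in brain it crossed 0 and the miR-1298 arms were at 0.37 and 0.40 with the first 18 nt counted and at 0.64 and 0.67 with the same counts on the scaling of the listed tags.

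The state ratio of miR-448-3p therefore differed between the tissues. The WAT ratio minus the brain ratio was -2.82 on the log2 scale (-3.17 to -2.48 by the normal approximation), and it lay between -3.00 and -2.18 under the alternatives. Of 96 listed miRNAs with 10 or more reads in each of the 4 libraries, 2 had a lower difference and 93 a higher one, and the median was -0.14. These are values of 4 libraries, and without replicates the difference between tissues was not tested. No such difference could be computed for the other arms, which had 0 reads in both WAT libraries.

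**Figure D3:**
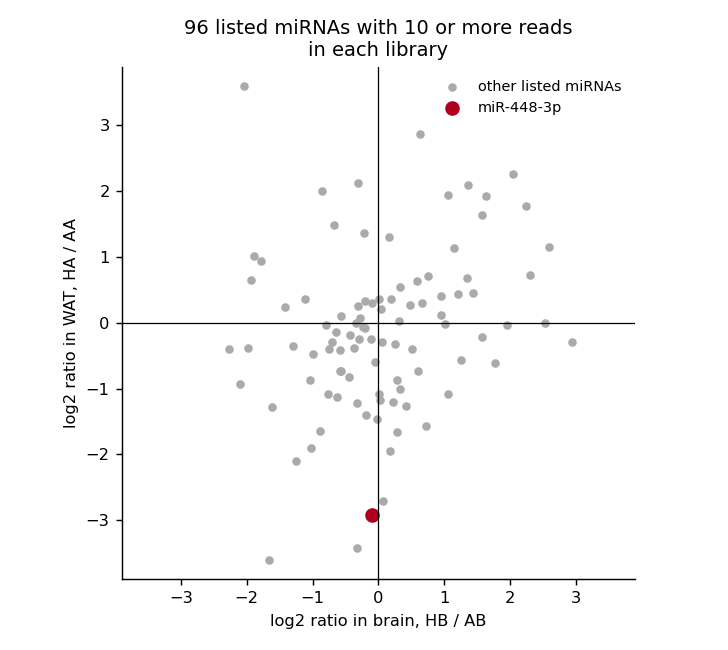
Log2 ratio of hibernating to active in brain (x axis) against that in WAT (y axis) for 96 listed miRNAs, with miR-448-3p in red. It sits at -0.10 in brain and -2.93 in WAT, near the lower edge of the plot.

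Between the tissues, all arms with enough reads were higher in brain. For miR-448-3p, the log2 ratio of brain to WAT was 5.47 (5.14 to 5.81) in hibernation and 2.59 (2.47 to 2.70) in the active state, which is 44.2-fold and 6.002-fold. Ratios of 1 or more in size were common here, at 76.1% of 159 listed miRNAs between HB and HA and at 74.8% of 159 between AB and AA, so that the size alone does not set miR-448-3p apart. In the order of ratios it had 17 miRNAs above it in hibernation and 38 above it in the active state.

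miR-1298-5p was higher in brain by a log2 ratio of at least 6.92 in hibernation and at least 6.41 in the active state, taking 3 reads for a WAT library with 0. For miR-1298-3p the bounds were 4.85 and 4.16. miR-448-5p had a bound of 0.84 in the active state, and in hibernation, with 3 and 0 reads, no ratio was taken. The bounds follow the reads in brain, so their order is not an order of the tissue difference.

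Expressed as a share of the brain level in RPM, miR-448-3p in WAT reached 15.6% (14.4 to 16.9%) in active bats and 2.12% (1.67 to 2.65%) in hibernating bats. A list of 11 miRNAs known from neural tissue was set beside it as a check of neural RNA in the WAT libraries. Summed, they reached 43855 RPM in HB and 58038 in AB against 139 in HA and 224 in AA, as the brain labels call for. With a library at 0 set to its limit of 3 reads, 10 of the 11 had a lower WAT share than miR-448-3p in the active state and 7 of the 11 did in hibernation. In hibernation, miR-138-3p and miR-153-3p had 0 reads in WAT with limits of 4.51% and 3.22%, above the share of miR-448-3p, so their order was not detectable at this depth. miR-153-5p, also at 0 reads there, had a limit of 1.93% but an interval that reached 2.40%, so its order was open too. In the active state the interval of miR-138-3p, with 4 reads in AA, reached 19.5%. miR-124a-3p, the neuronal miRNA with the most reads in brain, was at 0.0568% and 0.0725%.

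Higher shares in hibernation were found for the arms of miR-129, also a brain-enriched miRNA. miR-129-5p had a WAT share of 18.3% (14.9 to 22.2%) in the active and 24.9% in the hibernating state. Its active interval overlapped that of miR-448-3p, so their order in the active state was open. miR-129-3p, which was above miR-448-3p in hibernation alone, had 12.6% and 3.42%. All 11 summed to 224 RPM in AA and 139 in HA. Without the miR-129 arms, a split that the set list did not hold, the other 9 summed to 33.3 and 35.7, and miR-448-3p was at 64.6 and 6.67. Among the 9, miR-124a-3p had 292 (AA) and 286 (HA) reads and miR-124b-3p 50 and 111. In the same order, miR-219-3p had 18 and 12, miR-9-3p 11 and 3, miR-219-5p 6 and 0 and miR-138-3p 4 and 0. The source of the miR-448-3p reads in WAT was not tested. Of the 11, 3 had 0 reads in AA and 5 had 0 reads in HA. No list of adipose miRNAs was set, so the WAT label was checked only by the low level of the neural list.

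**Figure D4:**
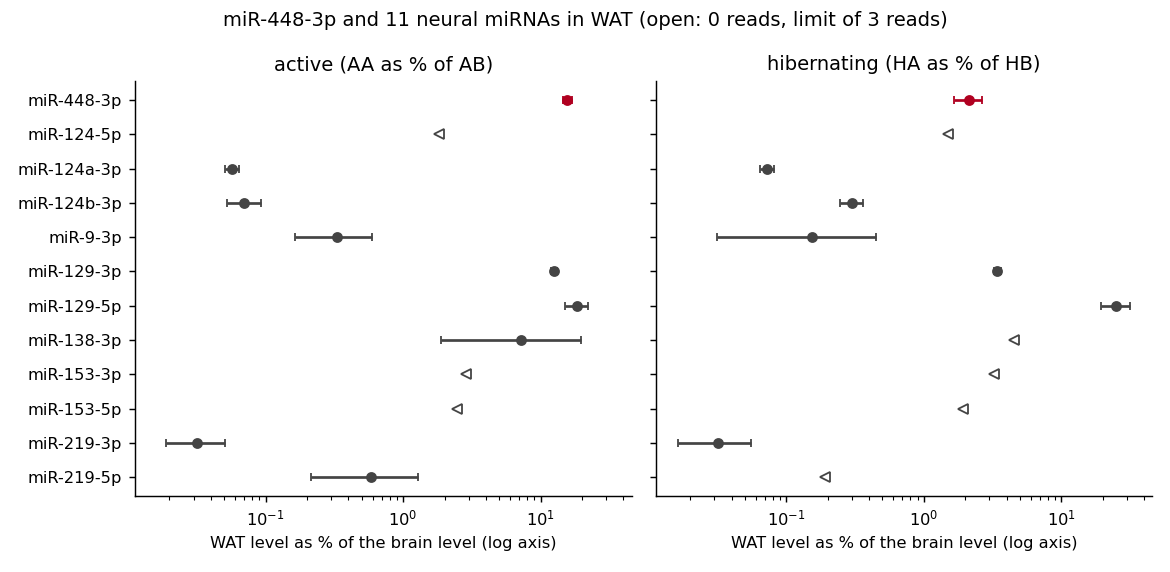
WAT level as a percentage of the brain level (log axis) for miR-448-3p (red) and 11 neural miRNAs (grey) in the active and the hibernating state, with 95% counting intervals and with open triangles at the limit of 3 reads where WAT had 0. miR-448-3p stood at 15.6% and 2.12%, beside the miR-129 arms and above miR-124a-3p at 0.0568% and 0.0725%.

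The hairpins were also compared within a library, where no scaling is needed. There were 9.38 reads of miR-448-3p for each read of miR-1298-5p in HB (8.47 to 10.4) and 17.4 in AB (15.3 to 19.9). With the first 18 nt counted the ratios were 6.23 (5.86 to 6.63) and 8.60 (7.98 to 9.28), so that the ratio was higher in AB under both rules and the intervals did not overlap. In WAT, the ratio was at least 246 in AA and at least 25.7 in HA for the listed sequences.

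miR-1298-5p was thus missing from WAT to a different degree than miR-448-3p. At the brain ratio, the 739 reads of miR-448-3p in AA would go with 42.5 reads of miR-1298-5p, and 0 were found. With the first 18 nt counted, the numbers were 163 and 0. In HA, 8.205 reads would go with the listed tag of miR-448-3p and 25.2 with its first 18 nt, and 0 and 1 were found.

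The arms of each hairpin were compared in the same way. There were 4.21 reads of miR-1298-5p for each of miR-1298-3p in HB (3.36 to 5.30) and 4.76 in AB (3.50 to 6.59), and a difference between the states was not detectable. The miR-448 arms were far less even, with 1276 reads of the 3p arm for each of the 5p arm in HB (436 to 6192) and 828 in AB (354 to 2550). With the first 18 nt counted, the ratio of the miR-448 arms was 733 (399 to 1530) in HB and 285 (189 to 449) in AB. When tags with bases 2 to 17 were counted, which lets the 5′ end vary, it was 253 (177 to 375) and 242 (167 to 365).

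The 3′ ends of miR-448-3p differed between libraries. Its 3 most abundant tags were the listed sequence and the same sequence with 1 more A or T. They are shown to place the added base, followed by the fourth tag, which was picked after its values were seen.

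miR-448-3p with A added: tTGCATATgtaggatgtcccaa
miR-448-3p with T added: tTGCATATgtaggatgtcccat
miR-448-3p with the change A21T: tTGCATATgtaggatgtccct

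Positions are counted from 1 at the 5′ end of the listed sequence. Here and below, added and changed refer to the listed sequence only. The hairpin sequences were not looked up, so bases encoded in the hairpin and bases joined later cannot be told apart. Among the tags with the first 18 nt of miR-448-3p, the listed sequence held 52.2% in HB (51.1 to 53.4%) and 63.2% in AB (62.0 to 64.4%), and in WAT it held 49.0% in HA (41.0 to 57.1%) and 52.7% in AA (50.1 to 55.4%). The form with A added held 17.6% in HB (16.8 to 18.5%) and 10.3% in AB (9.62 to 11.1%), and in WAT it held 12.1% in HA (7.45 to 18.3%) and 8.35% in AA (6.95 to 9.92%). HB thus had the largest share of this form, and its interval was apart from those of both active libraries.

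The forms that end in T had larger shares in WAT than in brain. The form with T added held 6.07% in HB (5.53 to 6.64%) and 6.16% in AB (5.59 to 6.77%), against 8.92% in HA (4.96 to 14.5%) and 11.3% in AA (9.73 to 13.1%). The A21T form held 3.03% in HB (2.65 to 3.45%) and 3.91% in AB (3.45 to 4.41%), against 8.28% in HA (4.48 to 13.7%) and 9.49% in AA (8.003 to 11.1%). For the A21T form both WAT intervals lay above both brain intervals, and for the added T this held for AA alone.

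These shares were set beside the same shares of all listed miRNAs with 100 or more reads in each library of a pair. Between HB and AB, the share with 1 A added was higher in HB for 59 and lower for 43 of 113 miRNAs, with medians of 1.40% and 0.918%. Between AB and AA, the share with 1 T added was higher in AA for 47 and lower for 32 of 92, with medians of 0.783% and 0.746%. For HB and HA, the share with 1 T added was higher in HA for 56 and lower for 26 of 95. The medians were 0.778% (HA) and 0.434% (HB). For HA and AA, the share with 1 A added was higher in HA for 64 and lower for 29 of 104. The medians were 2.19% (HA) and 1.21% (AA). In each of these comparisons the more frequent direction was that of the shares above, but many listed miRNAs went the other way. In the remaining ones miR-448-3p went against the more frequent direction, with overlapping intervals. The share with 1 A added was higher in HA than in HB for 52 and lower for 36 of 95. It was higher in AA than in AB for 46 and lower for 39 of 92. The share with 1 T added was higher in HA than in AA for 55 and lower for 30 of 104. It was higher in HB than in AB for 51 and lower for 49 of 113. No such background was computed for the A21T form.

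miR-1298-5p was spread over longer forms, printed here because 1 of them outnumbered the listed sequence in AB.

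miR-1298-5p with A added: tTCATTCGgatgtccagatgta
miR-1298-5p with AA added: tTCATTCGgatgtccagatgtaa

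The listed sequence held 34.7% of the miR-1298-5p reads in HB and 31.3% in AB. The form with A added held 23.8% in HB (21.4 to 26.3%) and 37.2% in AB (33.7 to 40.7%), and its 283 reads in AB were more than the 238 of the listed sequence. The form with AA added held 19.8% in HB and 15.2% in AB, and the 1 read of miR-1298-5p in HA was of this form. The single added A was thus higher in AB for miR-1298-5p and higher in HB for miR-448-3p. For miR-1298-3p, the listed sequence held 47.3% in HB and 38.5% in AB and the form with A added 30.2% and 38.5%, on 205 and 130 reads.

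**Figure D5:**
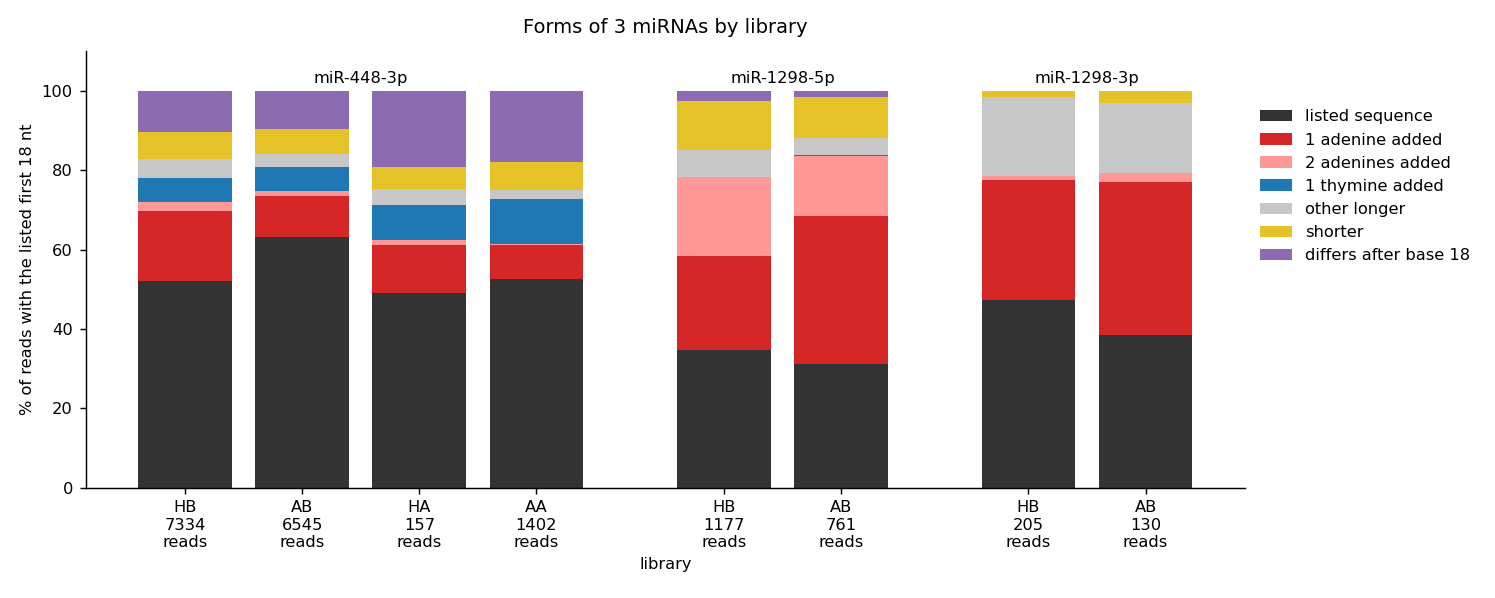
Share of reads (y axis, %) by 3′ form among tags with the first 18 nt of miR-448-3p in 4 libraries and of the miR-1298 arms in the brain libraries, with the reads behind each bar below it. The form of miR-448-3p with A added (red) was largest in HB at 17.6%, and that of miR-1298-5p was larger in AB at 37.2% than in HB at 23.8%.

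The 5′ end sets the seed, and it was read from tags that held bases 5 to 16 of an arm. miR-448-3p began at the listed base in 96.8% (HB), 96.3% (AB), 96.4% (HA) and 98.0% (AA) of these reads. miR-1298-5p did so in 94.7% in HB (93.3 to 95.9%) and 90.8% in AB (88.6 to 92.6%). The abundant arm of each hairpin thus had a nearly fixed 5′ end.

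The minor arms did not. For miR-1298-3p and miR-448-5p, the tag in the third place began before the listed base, with another seed, and these tags are shown for that reason.

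miR-1298-3p, 2 bases earlier: tACATCTGggcaactgattga
miR-448-5p, 1 base earlier: gAACATCCtgcatagtgctgcca

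miR-1298-3p began at the listed base in 61.4% of 337 reads in HB (56.0 to 66.6%) and 57.8% of 225 reads in AB (51.0 to 64.3%), and 2 bases earlier in 19.6% (15.5 to 24.2%) and 25.8% (20.2 to 32.0%). A difference between the states was not detectable. miR-448-5p began 1 base earlier in 20 of 30 reads in HB (66.7%, 47.2 to 82.7%) and in 5 of 28 in AB (17.9%, 6.06 to 36.9%), so here the intervals did not overlap, although the reads were few. Neither of these shifted seeds belonged to a listed miRNA. With bases 2 to 17 counted, which takes in both starts, miR-448-5p was read 30 times in HB and 28 times in AB. The second tag of miR-1298-3p was the form with A added, and the first and second tags of miR-448-5p were the form with T added, with 2 reads in HB and 12 in AB, and the listed sequence.

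The listed miRNAs with the most similar profiles over the 4 libraries were found among 130 profiles with 100 or more reads, by the distance between centred log2(RPM + 1) values. For miR-448-3p the nearest was miR-381-5p at a distance of 0.96, with 902 (HB), 801 (AB), 18 (HA) and 88 (AA) reads. Next came a pair of bat-specific miRNAs without a conserved name, which are given by sequence.

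Bat-specific miRNA at distance 1.33: aACGTAGAggaaattccacctt
Bat-specific miRNA at distance 1.43: tAGGAGCAgtgataggtaatat

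The first of them had 465, 385, 12 and 48 reads and the second 1299, 2413, 26 and 103, in the order HB, AB, HA and AA. All 3 were, like miR-448-3p, higher in brain and lower in HA than in AA by reads, a likeness that choosing the nearest profiles favours. For miR-1298-5p the nearest were miR-3958-3p at 0.58, with 320030, 226127, 6683 and 11177 reads, miR-544-5p at 0.67, with 929, 550, 6 and 22, and the neuronal miR-124-5p at 0.82, with 211, 143, 0 and 0. The profiles share the 4 libraries and their depths, and these distances are descriptions over 4 values each. With 0 reads in WAT, the WAT values of miR-1298-5p rest on the added 1 alone, which narrows its difference between tissues. Its log2 ratio of brain to WAT was at least 6.92 in hibernation and at least 6.41 in the active state. That of miR-3958-3p was 5.41 and 4.44, so how near it stands to miR-1298-5p depends on the added 1.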

How the data were processed

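Small RNA of hibernating and active bats was gel-selected (to 30 nt per the labels and to a somewhat longer limit in the study's methods) and sequenced on a Solexa instrument. After trimming adapters and dropping reads of low quality, the authors deposited every distinct tag (18 to 30 nt) of a library with its raw count; the aligner they used afterwards does not bear on these counts. The authors' mature sequences were taken as the list of miRNAs (119 conserved and 77 bat-specific), and no reference genome was used, so the position of the hairpins in this bat and other miRNAs of the host gene were not analysed here. A member's count was that of the tag identical to its sequence. For ratios, TMM factors came from edgeR 4.0.16 in R 4.3.3, computed on the listed miRNAs of the pair. The alternatives were scaling by clean reads, by reads of the listed miRNAs, by DESeq2 1.42.0 size factors (median of ratios) and by TMM over conserved miRNAs, and counts of all tags sharing the first 18 nt or holding bases 2 to 17. The 95% exact intervals (Poisson for levels in RPM, Clopper-Pearson for ratios and shares) were computed with SciPy 1.17.1 in Python 3.11.15 and cover counting error only. The interval of the WAT ratio minus the brain ratio is a normal approximation (delta method). A library with 0 reads was set to 3 reads, giving a bound, and no ratio was taken where both libraries had 3 reads or fewer. In the counts by first 18 nt or by bases 2 to 17, a tag was counted for every listed miRNA that it matched. Listed miRNAs with a shared start, such as miR-7b-5p and miR-7d-5p, thus entered the recomputed scaling with the same reads. Background counts used miRNAs with 10 or more reads in the pair and a threshold of 1 for the size of the log2 ratio. The study's negative binomial test was not run, because each condition has 1 library. The scripts were tested on simulated counts. The text names the 4 arms, the 3 most abundant tags of each (by bases 2 to 17) and the 3 nearest profiles of miR-448-3p and miR-1298-5p; the fourth tag of miR-448-3p is an exception. The members, the neural list and the rules were chosen with earlier results of these data known.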

Additional observations from a re-analysis of the deposited data

How the results depend on the processing

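Of 92 values recomputed for 24 results under the alternatives, 60 moved by less than the counting interval, 32 moved by more and 0 changed the sign of a ratio of 1 or more in size. The brain log2 ratio (HB to AB) of miR-448-3p was -0.39 with clean reads, -0.20 with reads of the listed miRNAs, 0.028 with TMM over conserved miRNAs, -0.013 with bases 2 to 17 and 0.17 with the first 18 nt on the scaling of the listed tags, an alternative chosen after seeing the data. That of miR-1298-5p was 0.50 with clean reads, 0.37 with the first 18 nt and 0.43 with bases 2 to 17, and that of miR-1298-3p was 0.40 and 0.41 with these count rules and 1.10, past 1, with TMM over conserved miRNAs. With the first 18 nt on the scaling of the listed tags they were 0.64 and 0.67, so part of their move with the first 18 nt came with the recomputed scaling. That of miR-448-5p passed 1 in size at -1.02 with clean reads, -1.46 with the first 18 nt and -1.19 with these on the scaling of the listed tags, and was -0.08 with bases 2 to 17. For miR-448-3p, HA to AA was -2.15 and the difference between tissues -2.18 with TMM over conserved miRNAs, and the latter was -2.41 with reads of the listed miRNAs. Its HB to HA ratio was 4.89 with reads of the listed miRNAs, and its AB to AA ratio was 2.77 with the median of ratios, 2.28 with the first 18 nt, 2.33 with bases 2 to 17 and 2.32 with the first 18 nt on the scaling of the listed tags. Over bases 2 to 17, the listed tag held 50.5% (HB) and 61.0% (AB) of miR-448-3p and 30.3% and 23.5% of miR-1298-3p. The ratio of miR-448-3p to miR-1298-5p was 6.23 (HB) and 8.60 (AB) with the first 18 nt and 6.35 and 8.61 with bases 2 to 17, and that of miR-1298-5p to miR-1298-3p in HB was 5.74 with the first 18 nt. The whole interval lay beyond 1 for 19.0% of the listed miRNAs in brain and 23.2% in WAT. Apart from these, the cause of these moves was not tested. No replicate could be left out, and no paired analysis was possible because each condition has 1 pooled library. Depth limits miR-448-5p in every library and the miR-1298 arms in WAT.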
